A study of Mus musculus with 24 samples.

Results

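The 10 genes described here are the activators of the circadian clock (Arntl, also called Bmal1, Clock and Npas2), the nuclear receptors that repress them (Nr1d1 and Nr1d2), the clock output factors Dbp, Tef and Hlf, their antagonist Nfil3, and the repressor Bhlhe40. They were taken by name, and 1 gene entry of the 37621 in each count table matched each of them in all 24 libraries. The study measured rRNA-depleted total RNA from brains of mice that lack Cdr1as (KO), a circular RNA abundant in neurons and rich in miR-7 sites, and of wild-type (WT) mice. Both genotypes are on the C57BL/6 background, and cerebellum, cortex, hippocampus and olfactory bulb each have 3 KO and 3 WT libraries. By its title, the series asks what loss of this locus does to microRNAs and to the brain. The labels used here give no age, sex, time of day or description of the deleted allele, and they do not say whether replicates are separate animals. The p-values below therefore cover only how far these libraries spread, and that spread may be technical.

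The clock of mammalian cells is a loop of transcription. CLOCK or NPAS2 pairs with BMAL1, binds E-box sequences and switches on the Per and Cry genes, whose proteins shut the pair off again. The same pair drives Nr1d1, Nr1d2 and Dbp, so in tissues with a running clock these transcripts peak when Arntl is low. NR1D1 and NR1D2 (REV-ERB alpha and beta) bind ROR elements and repress Arntl, Clock, Npas2 and Nfil3. DBP, TEF and HLF, the PAR bZIP factors, activate genes through D-box sequences, and NFIL3 (E4BP4) represses through the same boxes. BHLHE40 (DEC1) represses at E-boxes and is also induced quickly in stimulated neurons. Brain regions outside the suprachiasmatic nucleus hold such clocks as well.

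The libraries held 5.18M to 30.46M gene counts (M, mega), with a median of 16.9M. Cerebellum KO 1 (6.5M counts, 13741 genes detected), olfactory bulb KO 2 (5.18M, 14393 genes) and olfactory bulb WT 1 (7.4M, 16483 genes) were shallow, while 21 libraries were deeper, from 9.9M counts upward, with 20024 to 22619 genes. Cdr1as had 0 to 13 counts in each KO library and at least 364 CPM (counts scaled to 1M per library) in each WT library, so the genotype labels held. The 5 markers of each dissected region summed highest in that region in both genotypes. The 4 choroid plexus markers were uneven: they summed to 32.9 to 38.4 CPM in hippocampus KO libraries, and to 2325, 32.8 and 1831 CPM in hippocampus WT libraries 1 to 3. The clock genes themselves were well covered, from 57 counts (Npas2) and 65 counts (Nfil3) in the library where each was lowest up to 9395 counts of Tef.

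Short promoter windows, found for 9 of the 10 genes, differed in the clock elements they held. RefSeq windows (GRCm38.p6) from 250 bases before to 50 after the start matched 9 of the 10 genes, all but Bhlhe40. They were searched on both strands for the E-box CACGTG, the D-boxes TTATGTAA and TTACGTAA, the ROR elements TAGGTCA and TGGGTCA, and the nuclear receptor half-site AGGTCA, which lies within TAGGTCA. Of all 32851 windows, 7.15% held CACGTG, 0.938% TTATGTAA, 0.119% TTACGTAA, 2.61% TAGGTCA, 3.98% TGGGTCA and 16.3% AGGTCA. Arntl and Nfil3, both described targets of NR1D1 and NR1D2, each held TAGGTCA or its reverse complement. In Arntl it began 30 bases after the start in 1 of its 2 windows, and in Nfil3 12 bases before it. Nr1d2 held a half-site 77 bases before the start and Clock a half-site 119 bases before the start in 1 of its 3 windows. Tef held an E-box in both of its windows, at 127 and 138 bases before the start. The windows of Dbp, Nr1d1, Npas2 and Hlf held none of these letters. Sequence outside the windows, farther upstream or within the genes, was not searched, so elements there would be missed. The stretches below, with the matching letters in capitals and written 5′ to 3′ on the gene's strand, show the elements next to which the values of Arntl, Nfil3, Nr1d2 and Tef are read. The Arntl stretch is 30 bases at chr7:113207530-113207559 on the plus strand, the Nfil3 stretch is chr13:52981040-52981289 on the minus strand, the Nr1d2 stretch is chr14:18239107-18239356 on the minus strand, and the Tef stretch is chr15:81802423-81802672 on the plus strand.
Arntl: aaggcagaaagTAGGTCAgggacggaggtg
Nfil3: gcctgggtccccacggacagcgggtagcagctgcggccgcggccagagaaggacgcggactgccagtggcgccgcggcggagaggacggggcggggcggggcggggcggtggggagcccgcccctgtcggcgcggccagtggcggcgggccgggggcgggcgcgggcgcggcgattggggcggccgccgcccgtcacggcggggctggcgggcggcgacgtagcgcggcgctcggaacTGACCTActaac
Nr1d2: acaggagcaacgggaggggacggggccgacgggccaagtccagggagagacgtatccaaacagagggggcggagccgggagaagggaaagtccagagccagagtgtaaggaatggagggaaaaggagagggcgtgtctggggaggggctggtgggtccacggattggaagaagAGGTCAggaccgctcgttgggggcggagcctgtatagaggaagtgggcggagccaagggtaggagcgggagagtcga
Tef: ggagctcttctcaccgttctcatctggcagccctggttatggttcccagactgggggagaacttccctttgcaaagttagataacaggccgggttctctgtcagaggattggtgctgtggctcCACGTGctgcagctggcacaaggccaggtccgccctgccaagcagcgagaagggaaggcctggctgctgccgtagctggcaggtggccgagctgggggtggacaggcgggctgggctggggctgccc

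In the comparison of KO with WT, the output factor Dbp was lower in KO, the repressor Nr1d2 was lower, and the activator Arntl and the D-box repressor Nfil3 were higher, each by its estimate in all 4 regions. The smallest of these estimates was that of Arntl in hippocampus (0.09, SE 0.11). Of 14411 genes tested in all 4 regions, 12.6% had estimates below 0 in each and 10.2% above 0. The time of day at which tissue was taken is not given, so its part in these differences was not tested. In cerebellum and hippocampus Dbp had the largest difference of the 10, a log2 fold change of −0.72 in both. None of the 10 genes passed an adjusted p of 0.05 in any region (edgeR quasi-likelihood test with Benjamini-Hochberg adjustment over all genes tested). That rule called 1 of 15536 genes in cerebellum (0.00644%), 1 of 15777 in cortex (0.00634%), 1 of 16119 in hippocampus (0.00620%) and 4 of 15831 in olfactory bulb (0.0253%). Cdr1as was among them in every region.

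An unadjusted p under 0.05 was reached by 5 of the 10 genes in cerebellum, where 1.89% of all genes reached it. It was reached by 3 in cortex (5.64% of all genes), by 2 in hippocampus (4.01%) and by 3 in olfactory bulb (2.43%). The CPM of all 3 KO libraries lay on one side of all 3 WT libraries for 5 of the 10 genes in cerebellum (11.1% of all genes), 4 in cortex (13.5%), 2 in hippocampus (9.39%) and 6 in olfactory bulb (11.4%). In cerebellum 1 of these lay above WT (4.56% of all genes) and 4 below (6.54%), and in cortex 3 above (6.58%) and 1 below (6.90%). In hippocampus both lay below (4.16%; 5.23% of all genes lay above), and in olfactory bulb 3 above (5.44%) and 3 below (6.00%). The median log2 fold change of the 10 genes was −0.08, 0.03, −0.03 and −0.01 in cerebellum, cortex, hippocampus and olfactory bulb, beside −0.04, 0.00, −0.02 and −0.01 for all genes tested. The 10 genes thus did not move one way as a list. In tissue RNA of this kind, fewer cells of a type and less RNA per cell cannot be told apart.

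**Figure D1:**
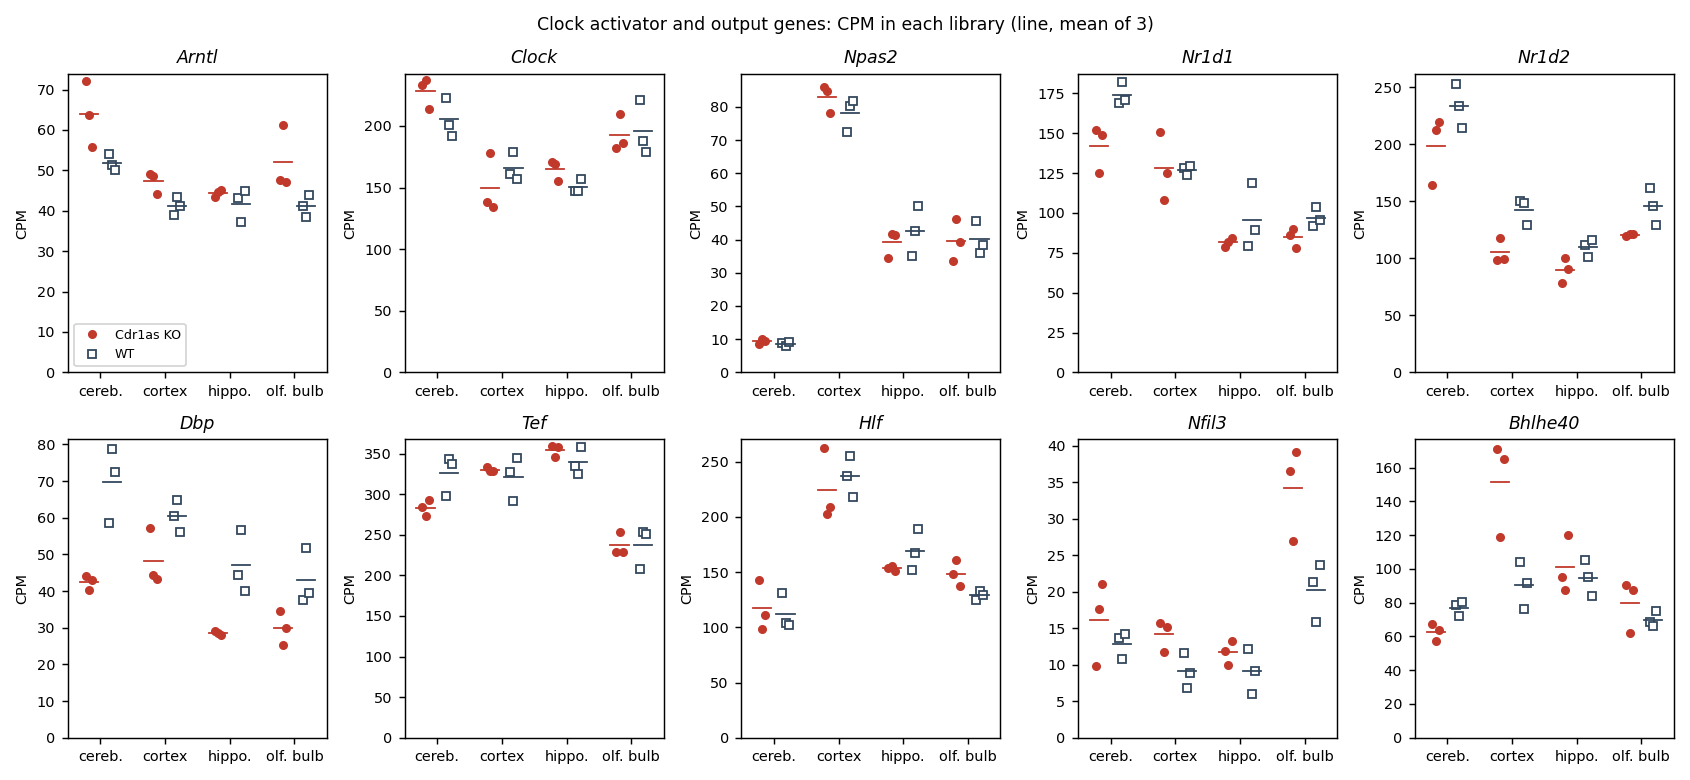
CPM of the 10 clock genes (y axis, from 0) in each of the 24 libraries, by region (x axis), with KO points left of WT points and a bar at the mean of the 3 libraries. The 3 Dbp points of KO lie below the 3 of WT in cerebellum, hippocampus and olfactory bulb, while those of Clock and Npas2 overlap in every region.

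Arntl encodes BMAL1, the partner that both CLOCK and NPAS2 need. It stood at 72.1, 63.7 and 55.9 CPM in cerebellum KO libraries, against 54.0, 51.3 and 50.02 CPM in cerebellum WT libraries. In cortex it was 49.1, 48.7 and 44.0 CPM in KO, against 38.9, 43.5 and 41.3 CPM in WT. In both regions every KO library lay above every WT library. Hippocampus had 43.4, 44.6 and 45.0 CPM in KO, against 43.2, 37.1 and 44.8 CPM in WT, which overlap. Olfactory bulb had 47.6, 61.2 and 47.1 CPM in KO, against 41.3, 38.4 and 44.0 CPM in WT, again with every KO library above. The log2 fold changes were 0.30 (SE 0.12) in cerebellum, 0.20 (SE 0.11) in cortex, 0.09 (SE 0.11) in hippocampus and 0.33 (SE 0.15) in olfactory bulb. Only that in cerebellum had an unadjusted p under 0.05 (0.0347), and its adjusted p was 0.949 (edgeR). Of 14411 genes tested in all 4 regions, 98 (0.680%) lay above WT with no overlap in at least 3 regions, as Arntl did. The highest Arntl value in cerebellum and the highest in olfactory bulb both came from shallow libraries, KO 1 and KO 2. Without the 2 shallow bulb libraries the bulb estimate was 0.21, and without cerebellum KO 1 the cerebellar one was 0.21 as well.

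Clock, the usual partner of BMAL1, and Npas2, its paralog in forebrain, overlapped between genotypes in all 4 regions. Clock averaged 228 ± 12.6 CPM in KO and 205 ± 16.4 CPM in WT cerebellum (SD, n = 3 each, here and below). It averaged 149.9 ± 24.7 CPM in KO and 165 ± 11.7 CPM in WT cortex, 165 ± 8.31 CPM in KO and 150.0 ± 5.96 CPM in WT hippocampus, and 193 ± 15.0 CPM in KO and 196 ± 21.7 CPM in WT olfactory bulb. Its log2 fold changes ran from −0.14 to 0.15. Npas2 averaged 9.34 ± 0.782 CPM in KO and 8.69 ± 0.642 CPM in WT cerebellum, and 83.0 ± 4.22 CPM in KO and 78.1 ± 5.01 CPM in WT cortex. In hippocampus it averaged 39.2 ± 4.18 CPM in KO and 42.7 ± 7.45 CPM in WT, and in olfactory bulb 39.6 ± 6.29 CPM in KO and 40.1 ± 4.97 CPM in WT. Its log2 fold changes ran from −0.12 to 0.11. The standard errors of both genes were 0.09 to 0.20, and no unadjusted p was under 0.05.

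Nr1d1 and Nr1d2 encode the haem-binding receptors that repress Arntl. Nr1d2 stood at 98.2, 118 and 99.8 CPM in cortex KO libraries, against 150.3, 149 and 129 CPM in cortex WT libraries. In hippocampus it was 78.1, 99.98 and 90.6 CPM in KO, against 112, 101 and 116 CPM in WT. In both regions every KO library lay below every WT library, in hippocampus narrowly. Olfactory bulb had 119.6, 121 and 121 CPM in KO, against 162, 146 and 129 CPM in WT, also without overlap. Cerebellum had 164, 213 and 219.9 CPM in KO, against 253, 234 and 214 CPM in WT, and there the groups overlapped. The log2 fold changes were −0.23 (SE 0.13) in cerebellum, −0.44 (SE 0.12, unadjusted p = 0.00707) in cortex, −0.29 (SE 0.11, 0.0305) in hippocampus and −0.27 (SE 0.11, 0.0274) in olfactory bulb, with adjusted p-values of 0.858 to 0.992 (edgeR). Without the shallow cerebellum KO 1, which was the lowest there, the cerebellar estimate was −0.11.

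Nr1d1 stood at 152, 125 and 149 CPM in cerebellum KO libraries, against 169, 182 and 171 CPM in cerebellum WT libraries. In olfactory bulb it was 86.4, 89.8 and 78.0 CPM in KO, against 92.0, 104 and 95.5 CPM in WT. Every KO library lay below every WT library in these regions. In cortex it averaged 128 ± 21.7 CPM in KO and 127 ± 2.95 CPM in WT, and in hippocampus 81.6 ± 2.88 CPM in KO and 95.9 ± 20.9 CPM in WT, with overlap. The log2 fold change was −0.29 (SE 0.10, unadjusted p = 0.0169, adjusted p = 0.949, edgeR) in cerebellum, 0.01 (SE 0.14) in cortex, −0.23 (SE 0.15) in hippocampus and −0.20 (SE 0.11) in olfactory bulb. In hippocampus WT 2 stood apart at 119 CPM, above the 79.1 and 89.3 CPM of the other WT libraries, and without it the estimate was −0.04. Nr1d1 shares 263 of its 3077 exon bases with Thra, the thyroid hormone receptor on the opposite strand (GENCODE M21). Whether the counting used strand is not given in the sources used here, so the Nr1d1 values are uncertain to that extent. Thra itself had log2 fold changes of 0.05 to 0.18 with no unadjusted p under 0.05.

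Dbp, the D-box activator with the strongest rhythm of the PAR bZIP genes in many tissues and described as driven by CLOCK and BMAL1, was lower in KO. It stood at 44.2, 40.4 and 42.9 CPM in cerebellum KO libraries, against 58.5, 78.7 and 72.5 CPM in cerebellum WT libraries. In hippocampus it was 29.2, 28.5 and 27.9 CPM in KO, against 44.4, 56.6 and 40.1 CPM in WT. In both regions the 3 KO libraries lay close together and well below the lowest WT library. Olfactory bulb had 34.6, 25.2 and 29.96 CPM in KO, against 37.7, 51.7 and 39.5 CPM in WT, also without overlap. Cortex had 57.2, 44.3 and 43.2 CPM in KO, against 60.5, 65.0 and 56.1 CPM in WT, where KO 1 lay just above WT 3. The log2 fold change was −0.72 (SE 0.13, unadjusted p = 6.72e-04, adjusted p = 0.949, edgeR) in cerebellum and −0.72 (SE 0.14, unadjusted p = 4.44e-04, adjusted p = 0.953, edgeR) in hippocampus, the 7th smallest p in both regions. It was −0.32 (SE 0.14, unadjusted p = 0.0522) in cortex and −0.52 (SE 0.18, unadjusted p = 0.0196) in olfactory bulb.

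The call on Dbp depended on the tool. DESeq2 called it in cerebellum (log2 fold change −0.71, adjusted p = 0.00604) and in hippocampus (−0.72, adjusted p = 0.00702), while over all alternatives its adjusted p ran from 0.00604 to 0.999 in cerebellum and from 0.00702 to 1 in hippocampus. Leaving out any 1 library kept the estimate between −0.83 and −0.61 in cerebellum and between −0.82 and −0.57 in hippocampus. WT 2 was the highest Dbp library in cerebellum, hippocampus, olfactory bulb and cortex alike. Of the 14411 genes tested in all regions, 57 (0.396%) lay below WT with no overlap in at least 3 regions, among them Dbp and Nr1d2. Of the same genes, 127 had a lower median estimate over the 4 regions than Dbp. Dbp shares 539 of its 2993 exon bases with Sphk2, a sphingosine kinase on the opposite strand, so its values too carry the doubt about strand. Sphk2 had log2 fold changes of 0.38 (SE 0.23) in cerebellum, 0.35 (SE 0.13, unadjusted p = 0.0321) in cortex, 0.13 (SE 0.12) in hippocampus and −0.01 (SE 0.27) in olfactory bulb.

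In hippocampus the choroid plexus markers stand beside this Dbp result. All 4 were lower in KO there, at a median log2 fold change of −4.35, and each had an unadjusted p under 0.05. In hippocampus WT libraries 1 to 3 the markers summed to 2325, 32.8 and 1831 CPM, beside 44.4, 56.6 and 40.1 CPM of Dbp. The low sum is that of 1 library. Number 2 was also the highest in Dbp among the WT libraries of the other 3 regions. In olfactory bulb the plexus sums were 4.56 to 6.15 CPM in KO and 6.31 to 19.3 CPM in WT, and in cerebellum 229 to 594 CPM in KO and 12.2 to 1057 CPM in WT. Other markers differed in the same comparisons at an unadjusted p under 0.05. In hippocampus these were 2 of 4 endothelial markers, Kdr (−0.44) and Cldn5 (−0.33), 2 of 5 hippocampus markers, Zbtb20 (0.29) and Nr3c2 (0.28), and the cerebellar Car8 (−0.50). The endothelial list summed to 143 to 156 CPM in KO and 158 to 170.1 CPM in WT hippocampus. In cerebellum they were Eomes (1.27) of the olfactory bulb list, the meningeal Aldh1a2 (0.75) and the blood marker Hba-a1 (0.62). The 5 olfactory bulb markers summed to 59.8 to 72.5 CPM in KO and 24.3 to 34.6 CPM in WT cerebellum. Most of that sum was Eomes, at 52.4, 54.0 and 68.4 CPM in KO, against 27.8, 20.2 and 24.6 CPM in WT. Th, Doc2g and Cdhr1 overlapped between genotypes there. Sp8 was at 0 in all 3 KO libraries and at 0.0657, 0 and 0 CPM in WT. The part of other tissue in the differences of the 10 genes was not tested.

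Tef and Hlf, the other PAR bZIP activators, did not share the pattern of Dbp. Tef stood at 284, 273 and 293 CPM in cerebellum KO libraries, against 298, 343 and 337 CPM in cerebellum WT libraries, without overlap (log2 fold change −0.20, SE 0.08, unadjusted p = 0.0391, adjusted p = 0.949, edgeR). In the other regions it overlapped, with log2 fold changes of 0.04 (SE 0.11) in cortex, 0.06 (SE 0.09) in hippocampus and 0.00 (SE 0.10) in olfactory bulb. Hlf stood at 148, 161 and 137 CPM in olfactory bulb KO libraries, against 125, 133 and 129.7 CPM in WT, with every KO library above (0.20, SE 0.10, unadjusted p = 0.0637). Elsewhere Hlf overlapped, at 117 ± 22.6 CPM in KO and 113 ± 16.4 CPM in WT cerebellum, 225 ± 32.5 CPM in KO and 236 ± 18.4 CPM in WT cortex, and 154 ± 2.88 CPM in KO and 169.7 ± 18.6 CPM in WT hippocampus.

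Nfil3, the repressor at D-boxes, was higher in KO by its estimate in each region. It stood at 15.7, 11.8 and 15.2 CPM in cortex KO libraries, against 11.6, 6.81 and 8.84 CPM in cortex WT libraries. In olfactory bulb it was 36.5, 26.9 and 39.2 CPM in KO, against 21.4, 15.9 and 23.6 CPM in WT. Every KO library lay above every WT library in both regions. Cerebellum had 9.78, 17.6 and 21.0 CPM in KO, against 13.6, 10.8 and 14.2 CPM in WT, where the shallow KO 1 was the lowest library of all. Hippocampus had 11.9, 9.998 and 13.2 CPM in KO, against 12.1, 6.03 and 9.10 CPM in WT, with overlap. The log2 fold change was 0.34 (SE 0.28) in cerebellum, 0.64 (SE 0.22, unadjusted p = 0.019) in cortex, 0.35 (SE 0.24) in hippocampus and 0.77 (SE 0.22, unadjusted p = 0.00604) in olfactory bulb, and the adjusted p-values were 0.858 to 0.992 (edgeR). Leaving out 1 library moved the estimate to between 0.11 (without KO 3) and 0.58 (without the shallow KO 1) in cerebellum, and to between 0.14 (without WT 2) and 0.62 (without WT 1) in hippocampus. Without the 2 shallow bulb libraries the bulb estimate was 0.96.

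Bhlhe40, the E-box repressor, was higher in KO in cortex and lower in KO in cerebellum by its estimates. It stood at 171, 119 and 165 CPM in cortex KO libraries, against 104, 76.4 and 91.6 CPM in cortex WT libraries. In cerebellum it was 67.6, 57.5 and 63.6 CPM in KO, against 78.8, 72.0 and 80.6 CPM in WT. Every KO library was above every WT library in cortex, and below in cerebellum. Hippocampus had 95.1, 87.6 and 120.0 CPM in KO, against 105, 95.2 and 84.1 CPM in WT, and olfactory bulb 90.4, 62.2 and 87.3 CPM in KO, against 68.7, 65.9 and 75.1 CPM in WT, both with overlap. The log2 fold change was 0.74 (SE 0.18, unadjusted p = 0.00284, adjusted p = 0.844, edgeR) in cortex and −0.30 (SE 0.10, unadjusted p = 0.0196, adjusted p = 0.949, edgeR) in cerebellum, 0.09 (SE 0.14) in hippocampus and 0.20 (SE 0.15) in olfactory bulb. Bhlhe40 shares 118 of its 4705 exon bases with 0610040F04Rik, an antisense RNA at 0 to 5.42 CPM.

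The cortex results of Bhlhe40 and Nfil3 depended on the model. Same-numbered KO and WT cortex libraries deviated together, though KO 3 correlated more with WT 1 (0.39) than with WT 3 (0.25). With the replicate number as a block Bhlhe40 passed (log2 fold change 0.74, SE 0.11, adjusted p = 0.0104, edgeR), among 30 genes called. The estimate was that of the main fit, where its SE was 0.18. With a covariate for the share of reads assigned to no feature, Bhlhe40 (0.77, SE 0.09, adjusted p = 0.00275) and Nfil3 (0.71, SE 0.13, adjusted p = 0.042) both passed, among 57 genes called. Over all alternatives the adjusted p ran from 0.00275 to 1 for Bhlhe40 and from 0.042 to 1 for Nfil3. That share was 30.5%, 53.7% and 33.6% in cortex KO libraries and 20.3%, 56.2% and 34.9% in cortex WT libraries, highest in number 2 of both genotypes. Number 2 also had the lowest Bhlhe40 and the lowest Nfil3 of each genotype. The 5 olfactory bulb markers differed between the same libraries, with sums of 18.5 to 19.8 CPM in KO and 28.5 to 55.5 CPM in WT cortex, and their part in these results was not tested.

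Early genes of stimulated neurons, of which Bhlhe40 is described as one, had estimates above 0 in most cases. Of a list of 9 (Fos, Fosb, Junb, Egr1, Egr2, Arc, Npas4, Nr4a1 and Dusp1), all 9 had estimates above 0 in cortex, hippocampus and olfactory bulb, at median log2 fold changes of 1.58, 1.14 and 1.49. In cerebellum 7 of 8 tested did, at a median of 1.44, with Egr1 at 0.01 and Arc at −0.10. An unadjusted p under 0.05 was reached by 9 of them in cortex (5.64% of all genes), 8 in hippocampus (4.01%), 9 in olfactory bulb (2.43%) and 4 in cerebellum (1.89%). Of all these, Fosb in olfactory bulb alone passed the adjusted threshold (2.17, SE 0.23, adjusted p = 0.0167, edgeR). Their summed level was 1372 to 1932 CPM in KO and 510.2 to 710.2 CPM in WT cortex, and 939 to 1377 CPM in KO and 228 to 677 CPM in WT olfactory bulb. It was 556 to 1002 CPM in KO and 309 to 421 CPM in WT hippocampus, and 212 to 299 CPM in KO and 113 to 151 CPM in WT cerebellum, the region where Bhlhe40 was lower. No gene of the list was at 0 in a whole group, and its part in the values of Bhlhe40 and Nfil3 was not tested. The list is one that the study's own publication dwells on, so its direction is no independent evidence.

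**Figure D2:**
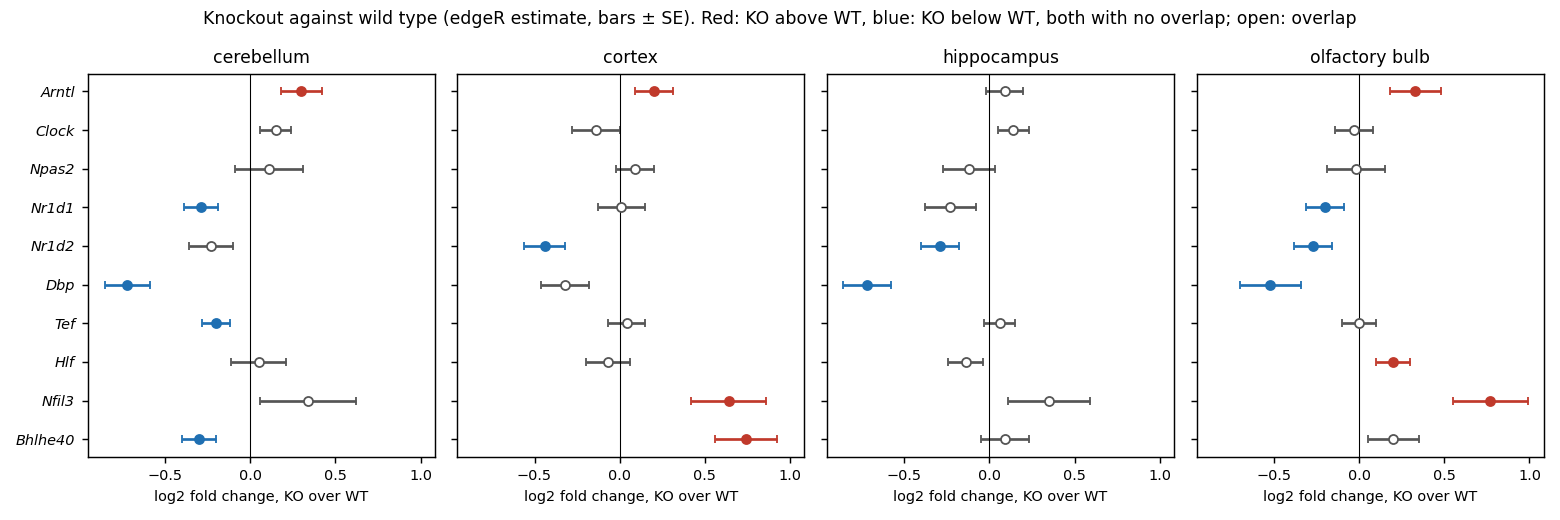
Log2 fold change, KO over WT (x axis), of the 10 clock genes (rows) in the 4 regions (panels), as edgeR estimates with bars of 1 SE. Filled points mark genes whose 3 KO libraries all lie above or all lie below the 3 WT libraries, and open points mark overlap. Dbp and Nr1d2 lie left of 0 in all 4 panels, Arntl and Nfil3 right of 0, and Bhlhe40 at −0.30 in cerebellum and 0.74 in cortex.

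Averaged over regions for each genotype and replicate number, Dbp was at log2 CPM of 5.34, 5.06 and 5.15 in KO, against 5.63, 5.94 and 5.66 in WT. Nr1d2 was at 6.81, 7.03 and 6.96 in KO, against 7.35, 7.22 and 7.16 in WT. For both genes the 3 KO means lay below the 3 WT means. Arntl was at 5.72, 5.74 and 5.58 in KO, against 5.47, 5.39 and 5.50 in WT, and Nfil3 at 4.03, 3.94 and 4.34 in KO, against 3.85, 3.20 and 3.70 in WT. For these the KO means lay above. These 4 of the 10 genes did not overlap, as was so for 11.7% of all 17600 genes (7.53% with KO below and 4.19% with KO above). They also had an unadjusted p under 0.05 (5.06% of all genes), and none passed the adjusted threshold, which 0.0114% of all genes did. The differences were −0.56 for Dbp (SE 0.12, unadjusted p = 5.61e-04, adjusted p = 0.494, limma), −0.31 for Nr1d2 (SE 0.09, adjusted p = 0.908, limma), 0.23 for Arntl (SE 0.09, adjusted p = 0.908, limma) and 0.53 for Nfil3 (SE 0.19, adjusted p = 0.908, limma). The other 6 genes lay between −0.17 (Nr1d1) and 0.18 (Bhlhe40).

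A fit of all 24 libraries with region as a factor, which takes the regions as independent, called Dbp (−0.56, SE 0.08, adjusted p = 5.44e-04, edgeR) and Nr1d2 (−0.30, SE 0.06, adjusted p = 0.0101, edgeR) as lower in KO, among 78 genes. Over all alternatives the adjusted p ran from 5.44e-04 to 0.998 for Dbp and from 0.0101 to 0.998 for Nr1d2. Same-numbered libraries of different regions deviated together in several pairs of regions, by r = 0.37 to 0.45 across genes between KO cortex and KO hippocampus, so that independence was not shown. Estimates below 0 in all 4 regions were held by 2 of the 10 genes (Dbp and Nr1d2) and by 12.6% of the 14411 genes tested throughout. Estimates above 0 in all 4 were held by 2 (Arntl and Nfil3) and by 10.2% of genes, so these counts are not far from the share among genes at large.

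Whether the KO difference itself varied by region was tested as an interaction over 17600 genes, of which 1 (0.00568%) passed the adjusted threshold and 1.48% had an unadjusted p under 0.05. None of the 10 clock genes passed, and Bhlhe40 had the smallest p among them (unadjusted p = 0.00126, adjusted p = 1, edgeR). The others had unadjusted p-values of 0.159 to 0.711. For Dbp, whose estimate was smaller in cortex than in cerebellum or hippocampus, the unadjusted p was 0.201, so that a difference between regions in its response was not shown.

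The level of Arntl relative to that of Dbp can be read from one library at a time. Log2 CPM of Arntl minus log2 CPM of Dbp was 0.70, 0.65 and 0.38 in cerebellum KO libraries, against −0.12, −0.62 and −0.53 in cerebellum WT libraries. In cortex it was −0.22, 0.14 and 0.03 in KO, against −0.64, −0.58 and −0.44 in WT. The KO libraries lay above the WT libraries in both. Hippocampus gave 0.57, 0.65 and 0.69 in KO, against −0.04, −0.61 and 0.16 in WT, and olfactory bulb gave 0.46, 1.28 and 0.65 in KO, against 0.13, −0.43 and 0.15 in WT. There was no overlap in any of the 4 regions. In hippocampus, however, Arntl by itself overlapped between genotypes (log2 fold change 0.09, SE 0.11). Not every library had the genes on opposite sides of their region means, as in cortex KO 1 (Arntl 0.22, Dbp 0.15). How often other pairs of genes separate in this way was not counted. Arntl minus Dbp was chosen with the values of both genes known, so it is a description and carries no test.

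**Figure D3:**
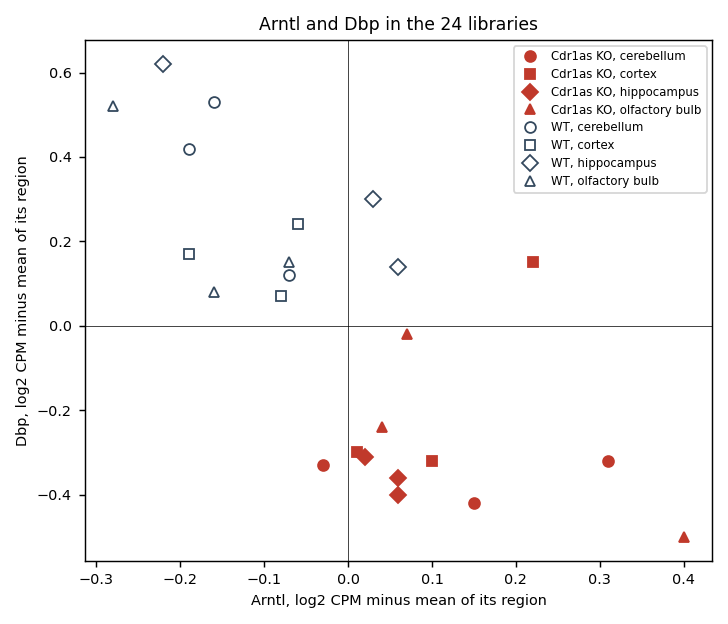
Log2 CPM of Arntl (x axis) and of Dbp (y axis), each minus that gene's mean in the region, in the 24 libraries, with filled points for KO, open points for WT and 1 symbol per region. Dbp lies between −0.50 and 0.15 in KO and between 0.07 and 0.62 in WT, and Arntl between −0.03 and 0.40 in KO and between −0.28 and 0.06 in WT, so the KO points sit mostly at the lower right and the WT points at the upper left.

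Across the 24 libraries, after each gene's mean in each region was subtracted, Arntl and Dbp correlated at r = −0.72, Nr1d1 and Dbp at 0.73, Nr1d2 and Dbp at 0.54, and Nfil3 and Bhlhe40 at 0.60. The libraries share genotype in these values. With the mean of each region and genotype subtracted instead, the values were −0.44, 0.60, −0.29 and 0.56. Nr1d1 with Dbp and Nfil3 with Bhlhe40 thus also varied together among replicates of a group, while Nr1d2 with Dbp did not. Clock and Bhlhe40 ran against each other, at −0.65 with region means subtracted and −0.68 with group means subtracted. These are descriptions over libraries that share depth and possibly animals.

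Among 13207 genes, those whose region-centred log2 CPM ran most like Arntl over the 24 libraries were Tjap1 (r = 0.82), Galnt6 (0.82) and Mrgbp (0.80). Those most like Dbp were Cdr1as itself (0.83), whose values separate the genotypes, Nrde2 (0.83) and Apcdd1 (0.77). Those most like Nr1d1 were Dbp (0.73), Plekho2 (0.69) and Bahcc1 (0.66). Those most like Bhlhe40 were Dnajb5 (0.79), Zscan2 (0.78) and Kcnab2 (0.78). The genotype difference was not removed from these values.

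The rest of the clock differed in both directions. Of 7 genes of the negative limb (Per1, Per2, Per3, Cry1, Cry2, Ciart and Bhlhe41), 3 in cerebellum had an unadjusted p under 0.05 and were higher in KO, and 2 were lower. Those with the smallest p were Cry1, an inhibitor of the CLOCK and BMAL1 pair, at a log2 fold change of 0.55 (SE 0.13), Per1, its partner, at 0.52 (SE 0.15), Ciart, a repressor under E-box control, at −0.81 (SE 0.24), and Per3 at −0.47 (SE 0.14). In cortex only Per1 did (0.94, SE 0.11), in hippocampus Per1 (0.55, SE 0.15) and Per2 (0.22, SE 0.10), and in olfactory bulb Per1 (0.95, SE 0.20), Per2 (0.56, SE 0.19) and Cry1 (0.58, SE 0.23). None of these passed the adjusted threshold. Of all genes tested, 1.89% had an unadjusted p under 0.05 in cerebellum, 5.64% in cortex, 4.01% in hippocampus and 2.43% in olfactory bulb. Averaged over regions, Per1 (0.75, SE 0.12, adjusted p = 0.122, limma) came closest, beside Per2 (0.30), Cry1 (0.34) and Ciart (−0.82).

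Per1 stood at 194, 174 and 197 CPM in cortex KO libraries, against 103, 89.6 and 100.4 CPM in cortex WT libraries, and at 183, 243 and 243 CPM in olfactory bulb KO libraries, against 85.1, 109.9 and 151 CPM in WT. Dbp, Nr1d1 and Nr1d2, also described as targets of the CLOCK and BMAL1 pair, had log2 fold changes of −0.52 to 0.01 in these regions. What lies behind these values was not tested. The 3 ROR activators that oppose NR1D1 and NR1D2, the bHLH-PAS factor Arntl2, the 7 clock kinases and ubiquitin ligase parts and the 6 described target genes (Nampt, Wee1, Usp2, Pdxk, Alas1 and Por) held no gene with an unadjusted p under 0.05 in any region or in the mean over regions. Of 6 glucocorticoid response genes, Plin4 (−0.92, SE 0.27) and Sult1a1 (−0.49, SE 0.15) were lower in KO hippocampus at an unadjusted p under 0.05, and none in the other 3 regions reached it. In the mean over regions Plin4 did (−1.72, SE 0.38, adjusted p = 0.629, limma).

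In WT, the levels of all 10 genes differed between regions by the test of any difference (adjusted p under 0.05 in edgeR), as did those of 59.3% of 16995 genes. Npas2 differed most. It averaged 37.4 ± 4.27 CPM in olfactory bulb, 43.4 ± 7.78 in hippocampus, 82.2 ± 5.32 in cortex and 8.59 ± 0.659 in cerebellum. Cortex was above cerebellum by 3.26 on the log2 scale (SE 0.16, adjusted p = 1.46e-09, edgeR), hippocampus was below cortex (−0.92, SE 0.14, adjusted p = 6.68e-04), and olfactory bulb against hippocampus did not pass (−0.22, SE 0.14, adjusted p = 0.265). Clock, which pairs with BMAL1 in the same way, averaged 183 ± 18.2 CPM in olfactory bulb, 153 ± 6.15 in hippocampus, 174 ± 8.95 in cortex and 203 ± 16.7 in cerebellum. Its order was cerebellum, olfactory bulb, cortex and hippocampus, and no neighbours in it passed the test. Hippocampus against cerebellum did (−0.41, SE 0.10, adjusted p = 0.00581).

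Arntl averaged 38.5 ± 2.80 CPM in olfactory bulb, 42.4 ± 3.67 in hippocampus, 43.4 ± 1.96 in cortex and 51.2 ± 2.13 in cerebellum. Of its pairs of regions, olfactory bulb against cerebellum passed (−0.41, SE 0.11, adjusted p = 0.00982, edgeR), and without olfactory bulb WT 2 that call ended (adjusted p = 0.0548). The any-difference call of Arntl ended in 4 of the fits that left out 1 library (adjusted p = 0.065 to 0.12), that of Clock in 4 (0.0552 to 0.0807) and that of Nfil3 without olfactory bulb WT 3 (0.0603).

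Nr1d2 averaged 136 ± 13.8 CPM in olfactory bulb, 111 ± 6.38 in hippocampus, 150.3 ± 11.1 in cortex and 231 ± 19.6 in cerebellum. Cerebellum was above cortex (cortex over cerebellum −0.62, SE 0.11, adjusted p = 4.05e-04, edgeR), while olfactory bulb against cortex did not pass (−0.15, SE 0.11), nor did olfactory bulb against hippocampus (0.29, SE 0.11, adjusted p = 0.0625). Nr1d1 averaged 90.7 ± 6.18 CPM in olfactory bulb, 97.7 ± 22.8 in hippocampus, 134 ± 5.61 in cortex and 172 ± 6.30 in cerebellum. It was lower in cortex than in cerebellum (−0.36, SE 0.14, adjusted p = 0.0462), a call that 10 of the fits without 1 library lost (0.0512 to 0.12), and olfactory bulb against hippocampus did not pass (−0.10, SE 0.14). Dbp had the same order of regions, at 40.1 ± 7.24 CPM in olfactory bulb, 47.9 ± 9.32 in hippocampus, 63.6 ± 3.53 in cortex and 69.1 ± 9.96 in cerebellum. No neighbours in that order passed edgeR's test without a replicate block, while olfactory bulb lay below cerebellum (−0.78, SE 0.17, adjusted p = 0.00188) and below cortex (−0.66, SE 0.17, adjusted p = 0.00663). Hippocampus lay below cerebellum as well (−0.53, SE 0.16, adjusted p = 0.0186), a call that 4 fits without 1 library lost (0.0502 to 0.0864).

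Hlf was a cortical gene by level, at 121 ± 4.95 CPM in olfactory bulb, 173 ± 19.6 in hippocampus, 249 ± 15.0 in cortex and 111 ± 16.6 in cerebellum. Cortex was above cerebellum by 1.16 (SE 0.12, adjusted p = 3.41e-06, edgeR), hippocampus lay below cortex (−0.53, SE 0.12, adjusted p = 0.0125), olfactory bulb lay below hippocampus (−0.52, SE 0.12, adjusted p = 0.00498), and olfactory bulb against cerebellum did not pass (0.11, SE 0.12). Tef averaged 222 ± 26.1 CPM in olfactory bulb, 345 ± 15.6 in hippocampus, 338 ± 34.8 in cortex and 322 ± 22.8 in cerebellum, and olfactory bulb was below each other region (olfactory bulb over cerebellum −0.54, SE 0.12, adjusted p = 0.00186). Nfil3 averaged 18.96 ± 3.77 CPM in olfactory bulb, 9.21 ± 2.98 in hippocampus, 9.58 ± 2.64 in cortex and 12.7 ± 1.83 in cerebellum. It was higher in olfactory bulb than in hippocampus (1.03, SE 0.26, adjusted p = 0.00763) and cortex (0.97, SE 0.26, adjusted p = 0.00995), and the gap to cerebellum did not pass (0.57, SE 0.26, adjusted p = 0.103). Bhlhe40 averaged 65.3 ± 4.86 CPM in olfactory bulb, 96.2 ± 10.01 in hippocampus, 95.6 ± 15.9 in cortex and 76.3 ± 4.74 in cerebellum, and olfactory bulb lay below hippocampus (−0.56, SE 0.13, adjusted p = 0.00505) and cortex (−0.55, SE 0.13, adjusted p = 0.00504).

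Other settings added calls between WT regions. DESeq2 called Bhlhe40 as higher in cortex (0.32, adjusted p = 0.0464) and in hippocampus (0.33, adjusted p = 0.04) than in cerebellum, and Arntl as lower in hippocampus than in cerebellum (−0.27, adjusted p = 0.0382). It also called Nr1d1 as lower in hippocampus than in cortex (−0.45, adjusted p = 0.0188), as edgeR did with RLE scaling (−0.45, adjusted p = 0.0485). With the replicate number as a block, which paired WT cortex and WT cerebellum libraries, Bhlhe40 was higher in cortex than in cerebellum (0.32, SE 0.12, adjusted p = 0.0375, edgeR). The same fit called Nfil3 as higher in olfactory bulb than in cerebellum (0.58, SE 0.17, adjusted p = 0.0148, edgeR), where same-numbered libraries correlated at 0.10, 0.17 and 0.20. Leaving out 1 library added the call of Bhlhe40 in cortex against cerebellum in 1 fit (0.00601) and in hippocampus against cerebellum in 3 (0.022 to 0.0441). It added that of Nr1d1 in hippocampus against cortex in 2 fits (0.00343 to 0.0349) and that of Nr1d2 in olfactory bulb against hippocampus in 1 (0.0475).

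By pair of regions, 4 of the 10 genes differed between cortex and cerebellum (46.7% of all genes did), 6 between hippocampus and cerebellum (42.1%), 6 between olfactory bulb and cerebellum (36.6%), 3 between hippocampus and cortex (9.77%), 7 between olfactory bulb and cortex (38.3%) and 4 between olfactory bulb and hippocampus (33.8%). Differences of this kind were thus common among genes at large.

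Levels of different genes were compared per kilobase of annotated exon (GENCODE M21), in WT. In cerebellum Nr1d1 was highest at 55.9 ± 1.98 CPM per kilobase, followed by Nr1d2 at 42.7 ± 3.61 and Tef at 40.9 ± 2.87, whose libraries overlap. Dbp stood at 23.1 ± 3.32, Hlf at 16.7 ± 2.47, Bhlhe40 at 16.2 ± 1.01 and Clock at 14.8 ± 1.24 CPM per kilobase. Arntl followed at 6.81 ± 0.284, Nfil3 at 6.27 ± 0.910 and Npas2 at 1.79 ± 0.138. In cortex Nr1d1 (43.4 ± 1.67), Tef (43.0 ± 4.43) and Hlf (37.2 ± 2.19) led, and Npas2 (17.2 ± 1.11) was above Clock (12.7 ± 0.661) CPM per kilobase. Npas2 was below Clock in the other 3 regions, at 7.80 ± 0.892 against 13.3 ± 1.31 in olfactory bulb and 9.06 ± 1.62 against 11.1 ± 0.445 in hippocampus, and by far in cerebellum. Arntl was at 5.12 to 6.81 CPM per kilobase in all 4 regions, below Nr1d1 and Nr1d2 everywhere. Total RNA also holds unspliced transcripts, and the union of annotated exons may be longer than the isoform used, so these levels are approximate.

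**Figure D4:**
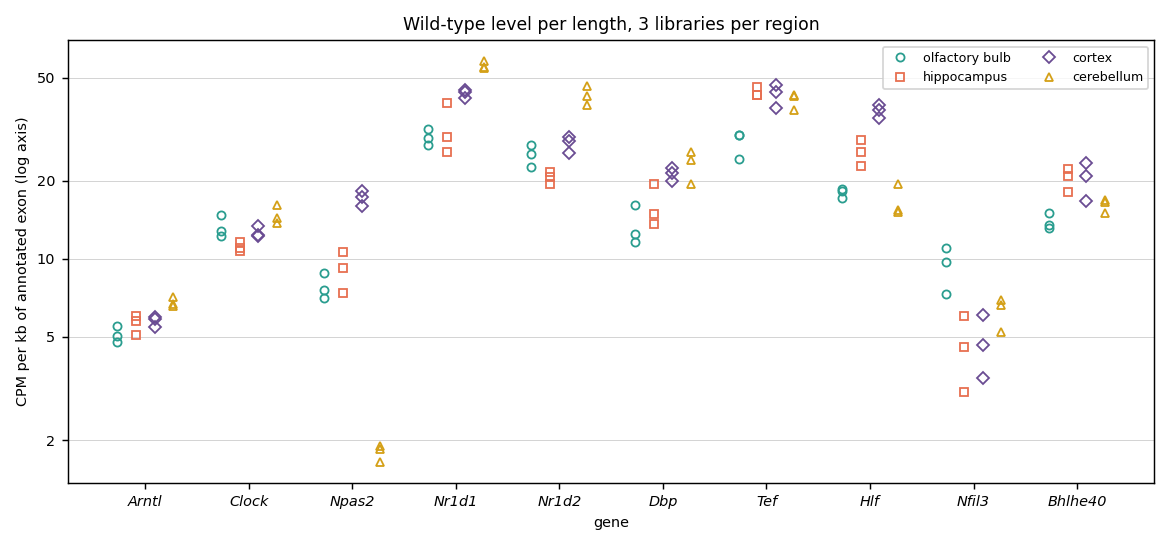
CPM per kilobase of annotated exon (y axis, log axis) of the 10 clock genes (x axis) in the 12 WT libraries, with 1 symbol and colour per region and 3 libraries each. Npas2 is at 1.79 in cerebellum and 17.2 in cortex on average, while Arntl stays between 5.12 and 6.81.

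Since Cdr1as is known for its miR-7 sites and for a site of miR-671, the longest annotated 3′ UTRs of the 10 genes were searched for the complements of both seeds. The mature RefSeq sequences (GRCm38.p6) are shown because they define the letters searched, with the seed, bases 2 to 8, in capitals.
mmu-miR-7a-5p: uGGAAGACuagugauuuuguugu
mmu-miR-671-5p: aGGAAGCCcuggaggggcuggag
The miR-7 site GTCTTCC was in none of the 10 genes' 3′ UTRs, and in 12.3% of 19751 genes. The miR-671-5p site GGCTTCC, found in 12.3% of genes as well, was in Tef at bases 52 and 923 and in Hlf at base 3726 of the 3′ UTR, and in no other of the 10. These matches are shown with the site in capitals.
Tef, first site: acctctgcctggGGCTTCCtggaccccact
Tef, second site: gtttaggaaactGGCTTCCacagtctcctg
Hlf, site: ccggctgggattGGCTTCCtgcagctgact
A match in letters is a description and not a bound site. Tef and Hlf, the carriers of these matches, had log2 fold changes of −0.20 to 0.06 and −0.14 to 0.20 over the 4 regions.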

How the data were processed

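RNA-seq was measured in 24 libraries. The values deposited by the authors are unnormalized read counts for each gene. Per the labels' protocols, TRIzol RNA was depleted of rRNA with RNase H before stranded libraries were prepared. The submitters' processing notes name STAR 2.5.1b, HTSeq 0.6.1p1, bcl2fastq 2.17.1.14 and mm9, with tool roles and settings not given in the sources used here. Library sizes and tests exclude the 5 summary entries: 20.3% to 62.9% of entries per library were reads in no feature, 8.8% to 21.4% not unique and 0.2% to 0.45% ambiguous. Names came from GENCODE M21 (GRCm38) for 32898 of 37621 entries, Cdr1as included.

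KO was tested against WT per region in edgeR 4.0.16 (R 4.3.3; TMM, filterByExpr at a minimum count of 10, robust quasi-likelihood F-test, two-sided), and over regions with limma 3.58.1 (trend, robust) on log2 CPM (prior count 2) averaged by genotype and replicate number. WT regions and the interaction were tested in edgeR too. Adjusted p-values are Benjamini-Hochberg values over all genes tested, at 0.05. CPM per region use TMM among its 6 libraries, WT levels TMM among the 12 WT libraries, and marker sums TMM over all 24. Alternatives were RLE scaling, other low-count filters, DESeq2 1.42.0, a replicate block, a no-feature covariate, joint fits and leaving out libraries. The main edgeR fit of KO against WT per region was tested on simulated data, and the other fits were not. Figures were drawn in Python 3.11.15.

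The 10 genes, the other gene lists and the tests were chosen with earlier results of these data known. The rule named all 10 genes, up to 4 genes per comparison from the other clock lists with an unadjusted p under 0.05, and the 3 genes most like Arntl, Dbp, Nr1d1 and Bhlhe40 among genes with mean log2 CPM of at least 1. Every replicate pair differed by more than sampling noise (chi-square per degree of freedom of at least 11.7). Deviations from group means correlated across genes between same-numbered KO and WT libraries at 0.48, 0.65 and 0.25 in cortex. Differently numbered ones ran from −0.68 to 0.39 there, and the 0.39 was that of KO 3 with WT 1. By this measure the numbers pair cortex libraries 1 and 2, and number 3 not clearly. In the other regions the same-numbered values ran from −0.27 to 0.12 and showed no pairing. For the mean over regions the values were 0.15, 0.23 and 0.25. That mean includes cortex, so these values do not show pairing apart from cortex.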

Additional observations from a re-analysis of the deposited data

Results flagged for a closer look

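The difference of Bhlhe40 between KO and WT in cortex minus that in cerebellum was 1.07 on the log2 scale (SE 0.23). It stands out because every KO library lay above every WT library in cortex (171, 119 and 165 CPM in KO, against 104, 76.4 and 91.6 CPM in WT) and below every WT library in cerebellum (67.6, 57.5 and 63.6 CPM in KO, against 78.8, 72.0 and 80.6 CPM in WT). The test of that difference over all genes gave an unadjusted p of 1.16e-04 and an adjusted p of 0.679 (edgeR with Benjamini-Hochberg adjustment). The differences in the other pairs of regions ran from −0.68 (hippocampus minus cortex) to 0.52 (olfactory bulb minus cerebellum), with adjusted p-values of 1.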

How the results depend on the processing

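In the fits that left out 1 library or 1 replicate number, 280 of the KO estimates of single genes kept their direction and their side of the threshold and 20 turned their sign, none of them called. No such fit called any of the 10 genes. Ranges over these fits that cross 0 were −0.11 to 0.18 for Hlf in cerebellum, −0.13 to 0.12 for Nr1d1 and −0.03 to 0.11 for Tef in cortex, −0.05 to 0.18 for Bhlhe40 and −0.24 to 0.01 for Npas2 in hippocampus, and −0.09 to 0.04 for Tef, −0.08 to 0.06 for Clock and −0.13 to 0.09 for Npas2 in olfactory bulb. For the mean over regions they were −0.06 to 0.05 for Hlf, −0.02 to 0.08 for Clock, −0.03 to 0.07 for Npas2 and −0.05 to 0.03 for Tef. Between WT regions they were −0.32 to 0.15 for Nfil3, −0.12 to 0.12 for Bhlhe40, −0.06 to 0.09 for Tef and −0.08 to 0.04 for Arntl (hippocampus against cortex), −0.01 to 0.12 for Clock (olfactory bulb against cortex) and −0.24 to 0.08 for Nr1d1 (olfactory bulb against hippocampus). Other settings turned the sign of Nr1d1 in cortex (0.00 with the replicate block) and, in olfactory bulb, of Tef (0.00 without a low-count filter, 0.00 with the replicate block, 0.02 with the no-feature covariate, 0.01 in the fit of 24 libraries), Npas2 (0.03 with the covariate) and Clock (0.01 without the 2 shallow libraries).

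The count of genes called was 1 in cerebellum, 1 in cortex, 1 in hippocampus and 4 in olfactory bulb. Without a low-count filter it was 3, 7, 5 and 16 in the same order, and with DESeq2 19, 41, 16 and 17. In 1 fit of 24 libraries it was 4, 6, 2 and 7. With the replicate block it was 30 in cortex, 6 in hippocampus and 11 in olfactory bulb, and for the mean over regions 15, where the main count was 2. With the no-feature covariate it was 57 in cortex and 2 in hippocampus. The fit with region as a factor called 78. Leaving out 1 library gave 1 to 3, 1 to 3, 1 to 47 (47 without hippocampus WT 2) and 1 to 8, and 2 to 5 for the mean over regions. For the interaction, with a main count of 1, DESeq2 gave 15 and the fit without the 3 shallow libraries 2. Among the 10 genes, 0 in the main fits, DESeq2 called 1 in cerebellum and 1 in hippocampus, the replicate block 1 in cortex, the covariate 2 in cortex, and the fit with region as a factor 2. The cause was not tested. The replicate block changed no other KO call of the 10 genes. Between other pairs of WT regions it added calls for Dbp (−0.43, adjusted p = 0.0311, edgeR) and Nr1d1 (−0.47, 0.0215) in hippocampus against cortex. Same-numbered libraries of these regions correlated at 0.47, 0.41 and −0.16. It also added Arntl (−0.28, 0.0488), Nfil3 (−0.49, 0.0313) and Bhlhe40 (0.34, 0.0324) in hippocampus against cerebellum, where the correlations were 0.20, 0.22 and −0.19. In olfactory bulb against hippocampus, with correlations of 0.09, 0.14 and 0.00, it added Nr1d2 (0.28, 0.0344). With 3 libraries a group, the SE of a KO estimate was 0.08 to 0.28 for these genes, so differences of that size could not be told from 0. Differences of several SE also missed the adjusted threshold in the main fits, such as Dbp in cerebellum (−0.72, SE 0.13).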
